A study of Mus musculus with 6 samples.

Results

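The genes described here carry calcium, anions and adenine nucleotides across the membranes of mitochondria in mouse gastrocnemius, a calf muscle made mostly of fast fibres. They were chosen by name as 9 genes, found by Ensembl identifier among the 51911 genes of the deposited count table, and all 9 passed the filter on low counts that kept 16593 genes. Bulk RNA sequencing gave 3 libraries from male HSA-PGC-1a3 transgenic mice and 3 from male wild-type mice, with 25532146 to 40846872 counted fragments each. HSA is the human skeletal actin promoter, which is active in skeletal muscle fibres, and PGC-1alpha3 is a protein form made from Ppargc1a, the gene of the coactivator PGC-1alpha. Age, background strain and the number of animals behind a library are not given in the sources used here, so p-values measure the spread between these libraries. Levels are CPM, counts per 1000000 counted fragments after scaling by TMM factors (edgeR's correction for library composition). Ppargc1a checked the labels, at 2449 to 3238 CPM in the transgenic libraries against 51.1 to 53.5 CPM in the wild-type ones.

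In muscle, each contraction releases calcium from the sarcoplasmic reticulum, and some of it enters mitochondria and raises the activity of matrix dehydrogenases. It crosses the outer membrane through the voltage-dependent anion channels (VDACs), which also pass ATP, ADP and other metabolites. It crosses the inner membrane through the uniporter, whose pore is MCU and whose opening is gated by the calcium-sensing MICU proteins, while LETM1 is an inner membrane cation exchanger. The adenine nucleotide translocators (ANTs) trade matrix ATP for cytosolic ADP. ANT1, encoded by Slc25a4, is the form typical of heart and skeletal muscle, and ANT2, encoded by Slc25a5, is typical of dividing cells.

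The comparison asked how these genes differ in muscle that overexpresses PGC-1alpha3. All 3 VDAC genes and Slc25a4 were lower in transgenic muscle, the gatekeeper gene Micu2 was higher, and Mcu, Micu3, Letm1 and Slc25a5 did not pass the test. Mean CPM fell by 38.3% for Vdac1, fell by 32.9% for Vdac2, fell by 45.9% for Vdac3 and fell by 21.3% for Slc25a4, and Micu2 was higher by 40.0%. Of the 9 genes, 1 rose and 4 fell at a Benjamini-Hochberg adjusted p under 0.05 (edgeR quasi-likelihood test over all genes). The background is broad: 50.7% of all tested genes passed, 25.5% as higher and 25.2% as lower, so 5 of 9 is near that share. For 5 of the 9 no transgenic library overlapped a wild-type one, against 59.6% of all tested genes. The median log2 fold change was -0.052 over the 9 genes and -0.016 over all tested genes.

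Scaling sets the zero of these changes. The mean TMM factor was 1.15 for transgenic and 0.872 for wild-type muscle. Scaling by library totals alone moved the middle of all genes, their median log2 fold change, to 0.38. With library totals alone 5 of the 9 genes were called higher and 3 lower, where 52.3% of all tested genes were called higher and 8.73% lower. The 3 VDAC genes stayed lower and Micu2 higher under either scaling, whereas the Slc25a4 difference was lost and turned to 0.051. Changes below are with TMM unless stated.

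**Figure D1:**
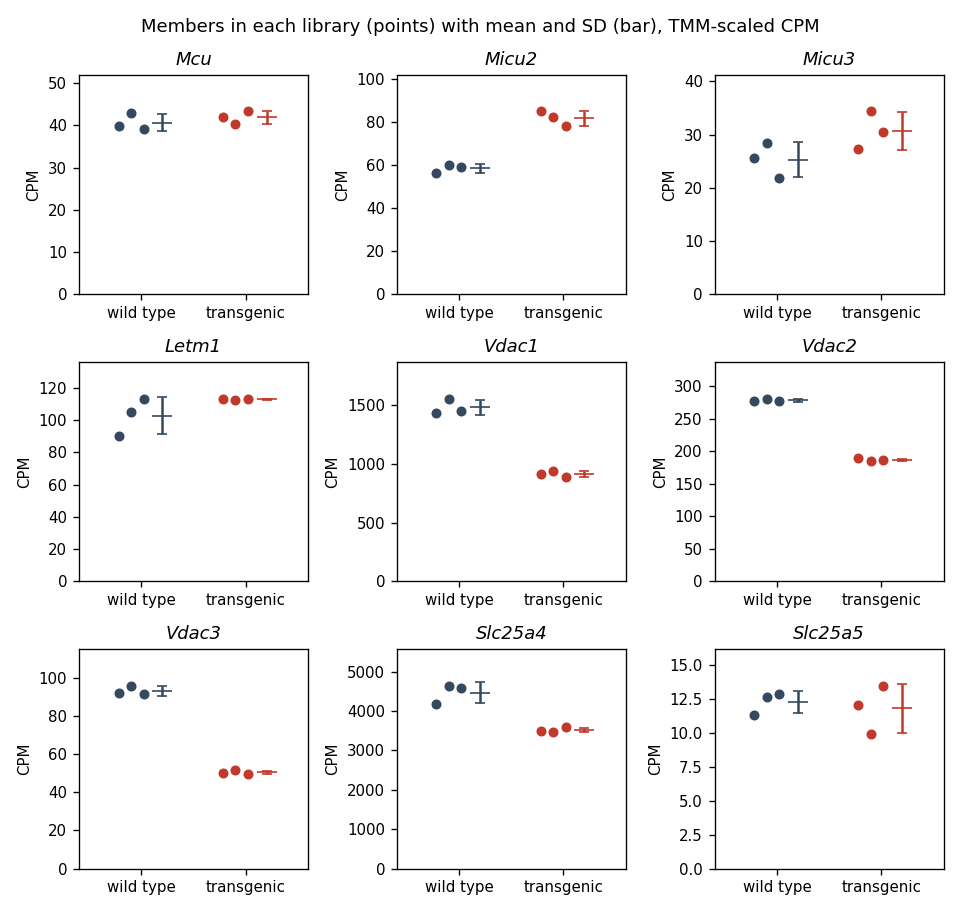
TMM-scaled CPM (vertical axes from 0) of the 9 genes in each library, with points for libraries and bars for mean and SD of 3 libraries per genotype. Transgenic points lie below every wild-type point for Vdac1, Vdac2, Vdac3 and Slc25a4 and above every one for Micu2, and the genotypes overlap for the other 4 genes.

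The RefSeq promoter table (GRCm38.p6, windows from 250 bases before to 50 bases after a start site) held 7 windows for 6 of the 9 genes. Windows are shown for the genes that passed the test and had an entry, since these moved in opposite directions; for Vdac1, which has 2 start sites, the downstream window is shown. Capitals mark the only match found in the windows of the 9 genes.
Micu2 promoter, chr14:57999213-57999512, minus strand: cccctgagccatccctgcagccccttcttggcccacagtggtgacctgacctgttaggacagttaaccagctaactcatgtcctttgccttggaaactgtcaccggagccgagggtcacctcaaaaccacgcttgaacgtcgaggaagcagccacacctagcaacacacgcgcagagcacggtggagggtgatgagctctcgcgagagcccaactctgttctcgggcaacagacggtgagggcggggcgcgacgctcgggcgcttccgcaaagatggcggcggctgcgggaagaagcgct
Vdac1 promoter, chr11:52361347-52361646, plus strand: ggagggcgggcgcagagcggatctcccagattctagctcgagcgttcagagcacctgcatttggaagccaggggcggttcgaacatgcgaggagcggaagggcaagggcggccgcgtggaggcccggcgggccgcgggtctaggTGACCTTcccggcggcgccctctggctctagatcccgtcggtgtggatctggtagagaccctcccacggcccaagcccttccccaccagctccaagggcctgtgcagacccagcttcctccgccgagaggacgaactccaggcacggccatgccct
Slc25a4 promoter, chr8:46211013-46211312, minus strand: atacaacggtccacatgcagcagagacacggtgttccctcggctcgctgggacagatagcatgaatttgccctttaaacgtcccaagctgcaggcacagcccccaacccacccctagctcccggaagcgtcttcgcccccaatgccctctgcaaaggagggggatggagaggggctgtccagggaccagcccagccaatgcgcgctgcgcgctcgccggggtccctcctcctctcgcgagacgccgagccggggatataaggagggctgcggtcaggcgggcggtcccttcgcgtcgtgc

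Motifs were searched on both strands: the estrogen-related receptor site TCAAGGTCA, the shorter nuclear receptor site AAGGTCA (contained in it), the NRF1 core CGCATGCG, the CREB site TGACGTCA and the MEF2 site CTATTTTTA. These factors are known partners of PGC-1alpha or regulators of muscle and mitochondrial genes. Among the 7 windows of the 9 genes there was 1 match, AAGGTCA on the minus strand of the downstream Vdac1 window, with its first base 106 bases before the start site (position -106). That motif occurs in 4.72% of 32851 promoter windows, TCAAGGTCA in 0.423%, CGCATGCG in 1.87%, TGACGTCA in 1.79% and CTATTTTTA in 0.493%. The windows of the uniporter genes Mcub and Smdt1 were searched too. Smdt1 held TGACGTCA with its first base at position -146, and Mcub held no match.

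The uniporter genes are described first. Mcu (chromosome 10, 59446984 to 59616692, GRCm38), the pore, had 41.9, 40.4 and 43.3 CPM in transgenic against 39.9, 43.0 and 39.1 CPM in wild-type libraries. These values overlapped, and the fitted change was 2.93%, a log2 fold change of 0.042 (SE 0.062, 95% interval -0.095 to 0.18, adjusted p = 0.605, edgeR). With library totals alone Mcu was called higher (0.44, adjusted p = 5.21e-05), close to the shift of the median gene. The 3 genes whose log2 CPM followed Mcu most closely over the 6 libraries were Wtap, Cops9 and Rps14 (Pearson r 0.990, 0.987 and 0.976); r exceeded 0.95 for 14 genes, and these points share libraries and depth.

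Micu2 (chromosome 14, 57916261 to 57999262) encodes a calcium-sensing gatekeeper that helps keep the uniporter closed at low calcium. It had 84.9, 82.3 and 78.1 CPM in transgenic against 56.1, 60.1 and 58.9 CPM in wild-type libraries. Every transgenic library lay above every wild-type library. The log2 fold change was 0.49 (SE 0.057, 95% interval 0.36 to 0.61, adjusted p = 3.95e-05, edgeR), higher than 81.5% of tested genes. Leaving out any 1 library gave 0.45 to 0.53.

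Micu3 (chromosome 8, 40307458 to 40386308) encodes a further MICU protein, known in mice mainly from the brain and reported as an enhancer of uptake. It had 27.2, 34.4 and 30.5 CPM in transgenic against 25.6, 28.4 and 21.9 CPM in wild-type libraries. The groups overlapped, and the log2 fold change of 0.28 (SE 0.11, 95% interval 0.030 to 0.52) missed the threshold at adjusted p = 0.0602. The gene passed without transgenic replicate 1 (0.38, adjusted p = 0.0124) or wild-type replicate 2 (0.36, adjusted p = 0.0238), and its adjusted p ran from 0.00029 to 0.204 over the alternatives. Its exons share 202 bases with Fgf20 on the other strand, and the counting ignored strand.

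Letm1 (chromosome 5, 33739673 to 33782817) had 113.5, 112.7 and 113.0 CPM in transgenic against 90.5, 105.1 and 113.3 CPM in wild-type libraries. The transgenic libraries were tightly grouped at the upper end of the wild-type values, and transgenic replicate 1 lay just above the highest of them. Its log2 fold change was 0.13 (SE 0.075, 95% interval -0.031 to 0.30, adjusted p = 0.159), and ran from 0.043 without wild-type replicate 1 to 0.20 without wild-type replicate 3, with no call in either. It passed with library totals alone (0.53) and with no filter on low counts (0.17, adjusted p = 0.0391), in a range of 8.24e-05 to 0.573 over the alternatives.

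All 3 outer membrane channel genes fell. Vdac1 (chromosome 11, 52360860 to 52389397) encodes the main channel of this family in many tissues. It had 909, 940 and 888 CPM in transgenic against 1432, 1555 and 1452 CPM in wild-type libraries. All 3 transgenic libraries lay below the wild-type ones, and the log2 fold change was -0.70 (SE 0.063, adjusted p = 5.49e-06), or -0.30 with library totals alone (adjusted p = 0.000703, against 5.67e-05 at most in the other alternatives). Vdac1 also holds the promoter match shown above, of a motif found in 4.72% of promoter windows. A part of that site in the fall was not tested.

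Vdac2 (chromosome 14, 21825238 to 21845879), whose product also binds the cell death protein BAK in other cells, had 189, 185 and 186 CPM in transgenic against 277, 281 and 277 CPM in wild-type libraries. Libraries of 1 genotype differed by only a few CPM while the genotypes were far apart. The log2 fold change was -0.57 (SE 0.049, adjusted p = 3.47e-06), or -0.18 with library totals alone (adjusted p = 0.00527).

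Vdac3 (chromosome 8, 22577075 to 22593813), the least abundant of the channels, had 50.05, 51.4 and 49.6 CPM in transgenic against 91.8, 95.8 and 91.3 CPM in wild-type libraries. This was the deepest fall among the 9 genes, with a log2 fold change of -0.89 (SE 0.053, 95% interval -1.002 to -0.77, adjusted p = 2.86e-07), or -0.49 with library totals alone. Only 6.54% of tested genes fell further, against 10.6% for Vdac1 and 14.4% for Vdac2. Pseudogene copies bear on its level: 47.5% of the 50-base words of its longest coding transcript also occur in other annotated transcripts, among them Vdac3-ps1, which had at most 84 counts in a library against at least 1522 for Vdac3. The shared words come to 10.3% for Vdac2 and 1.88% for Vdac1, and the count command in the file header has no option for reads that map to several places. Low pseudogene counts therefore do not show how many reads were lost, and the Vdac3 level may be too low.

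**Figure D2:**
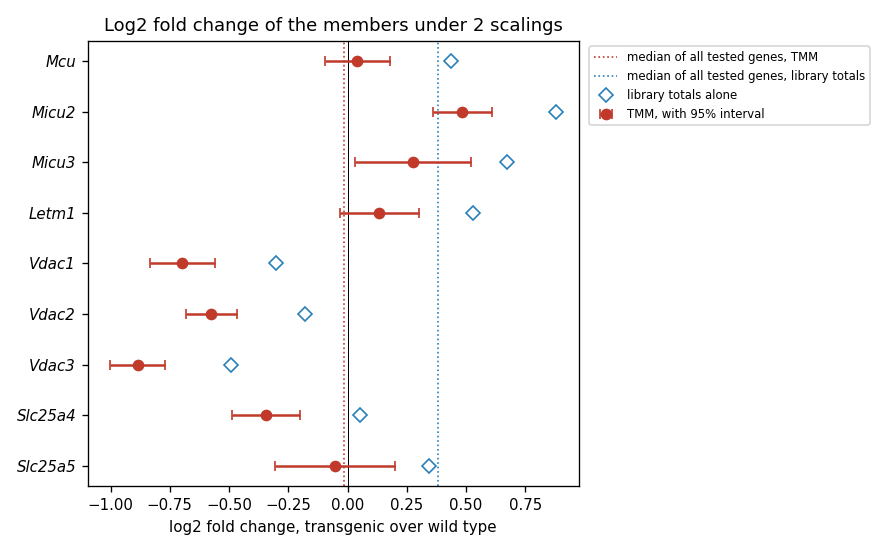
Log2 fold change, transgenic over wild type, of the 9 genes with TMM scaling (filled points with 95% intervals) and with library totals alone (open diamonds); dotted lines mark the median of all tested genes at -0.016 and 0.38. The 3 VDAC genes lie left of 0 under both scalings, Micu2 right of 0 under both, and Slc25a4 moves from -0.34 to 0.051.

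The ANT genes of the inner membrane differed widely in level. Slc25a4 (chromosome 8, 46206797 to 46211284) had 3501, 3472 and 3589 CPM in transgenic against 4174, 4643 and 4597 CPM in wild-type libraries. Every transgenic library was below every wild-type library, with a log2 fold change of -0.34 (SE 0.065, 95% interval -0.49 to -0.20, adjusted p = 0.00103, edgeR). With library totals alone the value was 0.051 (adjusted p = 0.470), so the call rests on the scaling.

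Slc25a5 (chromosome X, 36795651 to 36798807) had 12.03, 9.93 and 13.5 CPM in transgenic against 11.4, 12.6 and 12.8 CPM in wild-type libraries. The groups overlapped, with a log2 fold change of -0.052 (SE 0.11, 95% interval -0.30 to 0.20, adjusted p = 0.730), which turned to 0.34 with library totals alone (adjusted p = 0.0218). Transcripts of 9 other genes hold 46.6% of its 50-base words, and the pseudogenes looked up among them had at most 4 counts in a library. Reads that map to several places were not requested in counting, so these low counts do not show how many Slc25a5 reads were lost. Slc25a4 shares 0% of its words, so the Slc25a5 level relative to Slc25a4 may be too low. Of the summed ANT level per kilobase of exon, Slc25a5 made up 0.477% ± 0.0642 in transgenic and 0.391% ± 0.00602 in wild-type muscle (SD, n = 3), and Slc25a4 the rest.

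Levels of different genes were compared per kilobase of exon union. In wild-type muscle Slc25a4 led at 1900 ± 110 CPM per kilobase, followed by Vdac1 at 565 ± 25.1, Vdac2 at 58.3 ± 0.466, Micu2 at 18.9 ± 0.656, Vdac3 at 17.2 ± 0.452, Letm1 at 10.7 ± 1.199, Slc25a5 at 7.45 ± 0.485, Mcu at 5.86 ± 0.296 and Micu3 at 4.11 ± 0.531 (SD, n = 3). No neighbours in that order overlapped between libraries. In transgenic muscle Letm1 (11.7 ± 0.042) stood above Vdac3 (9.29 ± 0.176), and Slc25a5 overlapped with Mcu. Slc25a4 ranked 30 of the tested genes by this level in wild-type and 29 in transgenic muscle, and Vdac1 71 and 86. With the length of the longest coding transcript in place of the exon union, Vdac3 ranked above Micu2 in wild-type muscle (65.3 ± 1.72 against 25.1 ± 0.868), and the order of Slc25a5, Mcu and Micu3 also changed. In transgenic muscle that length put Vdac3 (35.4 ± 0.672) above Letm1 (21.4 ± 0.0769), the reverse of the order by exon union.

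Ratios within a library do not depend on the scaling factor. Of 11 pairs compared, 7 did not overlap between genotypes. Among single tested genes 59.6% did not overlap in CPM, and the share among pairs of any genes was not computed. With 3 libraries against 3 the exact two-sided permutation test cannot go below p = 0.1, so no pair could pass, and the adjusted p of those 7 was 0.157 over the 11 pairs, some of which share a gene. Micu2 per Mcu was 4.56, 4.58 and 4.05 in transgenic against 3.17, 3.14 and 3.39 in wild-type libraries, 1.36-fold higher. The level of such a ratio depends on the length used, and the fold between genotypes does not: by the longest coding transcript Micu2 per Mcu was 2.41 in transgenic and 1.77 in wild-type muscle (ratios of means). Smdt1, the gene of the subunit EMRE, per Mcu was 10.1, 10.1 and 10.4 in transgenic libraries against 9.17, 9.85 and 9.54.

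Among the channels, Vdac2 per Vdac3 was 4.29, 4.09 and 4.27 in transgenic against 3.43, 3.33 and 3.44 in wild-type libraries, 1.24-fold higher. By the longest coding transcript it was 2.70 and 2.18 (ratios of means). Vdac1 per Vdac3 was 1.14-fold higher, and Vdac1 per Vdac2 was 0.919-fold that of wild type. On these ratios Vdac2 was lowered least and Vdac3 most, in each case with no overlap between genotypes. Vdac1 still made up 87.8% ± 0.313 of the summed VDAC level per kilobase of exon union in transgenic and 88.2% ± 0.337 in wild-type muscle. Slc25a4 per Vdac1 was 4.29, 4.11 and 4.50 in transgenic against 3.25, 3.33 and 3.53 in wild-type libraries, 1.28-fold higher. For the ANT pair, Slc25a4 per Slc25a5 was 204, 245 and 186 against 257, 258 and 251, levels that may be too high given the words Slc25a5 shares with other genes.

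**Figure D3:**
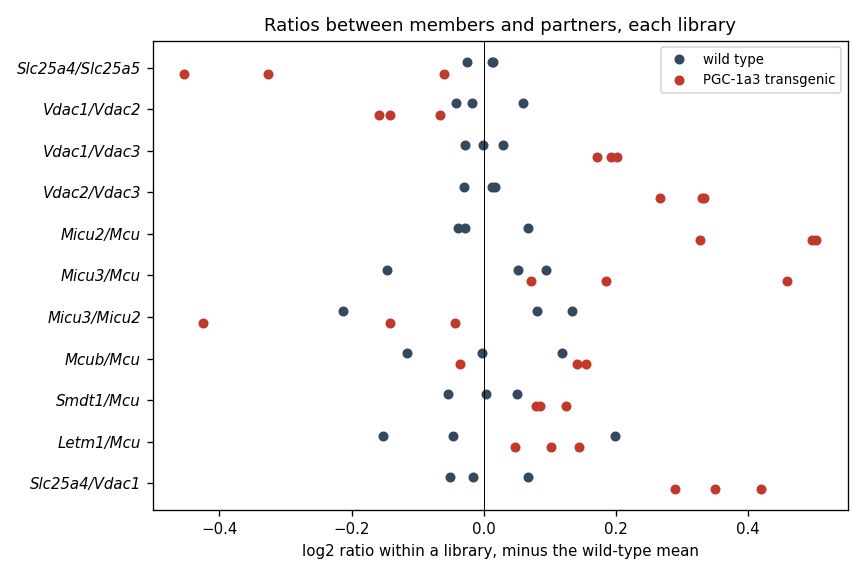
Log2 ratio of each pair of genes within a library, per kilobase of exon union, minus the wild-type mean of that pair; each point is 1 library. Micu2/Mcu, Slc25a4/Vdac1, Vdac2/Vdac3, Vdac1/Vdac3 and Smdt1/Mcu lie to the right of all wild-type points in the 3 transgenic libraries, and Vdac1/Vdac2 and Slc25a4/Slc25a5 to the left.

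Of 5 other genes of the uniporter complex and its assembly, 2 fell and 0 rose, beside 25.2% lower and 25.5% higher among all tested genes. Mcur1, which encodes a uniporter regulator, had 55.1, 57.7 and 51.8 CPM against 81.6, 85.2 and 85.7 CPM (log2 fold change -0.62, adjusted p = 7.93e-06), and stayed lower with library totals alone (-0.22). The ATP-Mg/phosphate carrier gene Slc25a23 fell by 0.38 with TMM, but was 0.018 with library totals alone. Smdt1, which encodes the essential subunit EMRE, was at 0.14 (adjusted p = 0.121), and 245 of its 1479 exonic bases are shared with Pheta2 on the same strand, where fragments count for both genes. Mcub, the pore subunit that lowers uptake, was rare, with 15 to 33 counts in a library, and was at 0.11 (adjusted p = 0.755).

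Of 5 genes of other calcium or cation exchange, 2 rose and 1 fell, beside 25.5% higher and 25.2% lower among all tested genes. Slc8b1, which encodes the sodium-calcium exchanger that lets calcium out of the matrix, had 13.2, 14.4 and 14.2 CPM in transgenic against 10.4, 9.90 and 10.96 CPM in wild-type libraries. It rose by 0.42 on the log2 scale (adjusted p = 0.00162), and Letmd1, a gene for a LETM1 domain protein, by 0.86. The inner membrane protein gene Tmem65 fell by 0.60. All 3 protease genes passed, as did 50.7% of all tested genes. Yme1l1 (0.65) and Spg7 (0.17) rose. Their fellow Afg3l2, which clears unassembled EMRE, fell by 0.52, though it did not pass with library totals alone (-0.13, adjusted p = 0.112). The Spg7 call was lost without wild-type replicate 3 (0.14, adjusted p = 0.0826).

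Of 14 outer membrane and reticulum partners of VDAC, 3 rose and 6 fell, beside 25.5% higher and 25.2% lower among all tested genes. Of the 6, Hspa9, a mitochondrial chaperone gene (-0.17, adjusted p = 0.0381), lost its call without a filter on low counts, with the replicate block and without any library but wild-type replicate 1 (-0.13 to -0.17, adjusted p 0.072 to 0.166), and was called higher with library totals alone (0.23). Itpr3 (-0.44, adjusted p = 0.0269) passed only without transgenic replicate 1 among the fits that leave out a library, and with library totals alone neither it (-0.043) nor Itpr2 (-0.34 with TMM, 0.054 with totals) passed. These 3 genes were named after their values were seen. Tspo, the translocator protein that sits beside VDAC, had 37.8, 37.7 and 39.6 CPM in transgenic against 17.5, 14.7 and 17.2 CPM in wild-type libraries, a log2 fold change of 1.23 (adjusted p = 4.94e-07). The reticulum chaperone gene Bcap31 rose by 1.095 and the hexokinase gene Hk1 by 1.003. Hk2, the hexokinase of adult muscle, fell by 0.62, or 0.23 with library totals alone (adjusted p = 0.0943). Itpr1, an inositol trisphosphate receptor that feeds calcium to VDAC1 at contact sites, had 27.03, 28.4 and 27.4 CPM against 64.3, 66.2 and 57.7 CPM (-1.18, adjusted p = 2.07e-07). The mitofusin gene Mfn2 fell by 0.65.

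Of 9 genes of nucleotide and phosphate exchange at the inner membrane, 7 were tested, 2 rose and 2 fell. The ATP-Mg/phosphate carrier gene Slc25a24 (0.56) and the coenzyme A carrier gene Slc25a42 (0.28) rose. The Slc25a42 call was lost without wild-type replicate 1 (0.20, adjusted p = 0.0604) or wild-type replicate 3 (0.27, adjusted p = 0.0546). Ppif, which encodes cyclophilin D of the permeability transition, fell by 0.75, and its exons share 921 bases with the antisense gene Ppifos. Reads of a gene on the other strand cannot be told apart here, which also touches Slc25a23 (168 shared bases), Itpr1 (108 and 181 shared bases), Hk1 (157), Tspo (53) and Gpd2 (487). The phosphate carrier gene Slc25a3 fell by 0.44 with TMM and was at -0.045 with library totals alone (adjusted p = 0.542). Of 6 calcium-sensitive enzymes and carriers, 4 fell and 0 rose: Gpd2, the mitochondrial glycerophosphate dehydrogenase, by 1.62, the isocitrate dehydrogenase gene Idh3a by 0.75 and the aspartate-glutamate carrier gene Slc25a12 by 0.46, the last with no call with library totals alone (-0.063, adjusted p = 0.386). Over all groups, 9 of the 40 tested genes around the transporters rose and 16 fell with TMM, at a median of 0.025, beside 25.5% higher and 25.2% lower among all tested genes. Under totals scaling 22 were called higher and 7 lower, beside 52.3% and 8.73% of all tested genes.

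**Figure D4:**
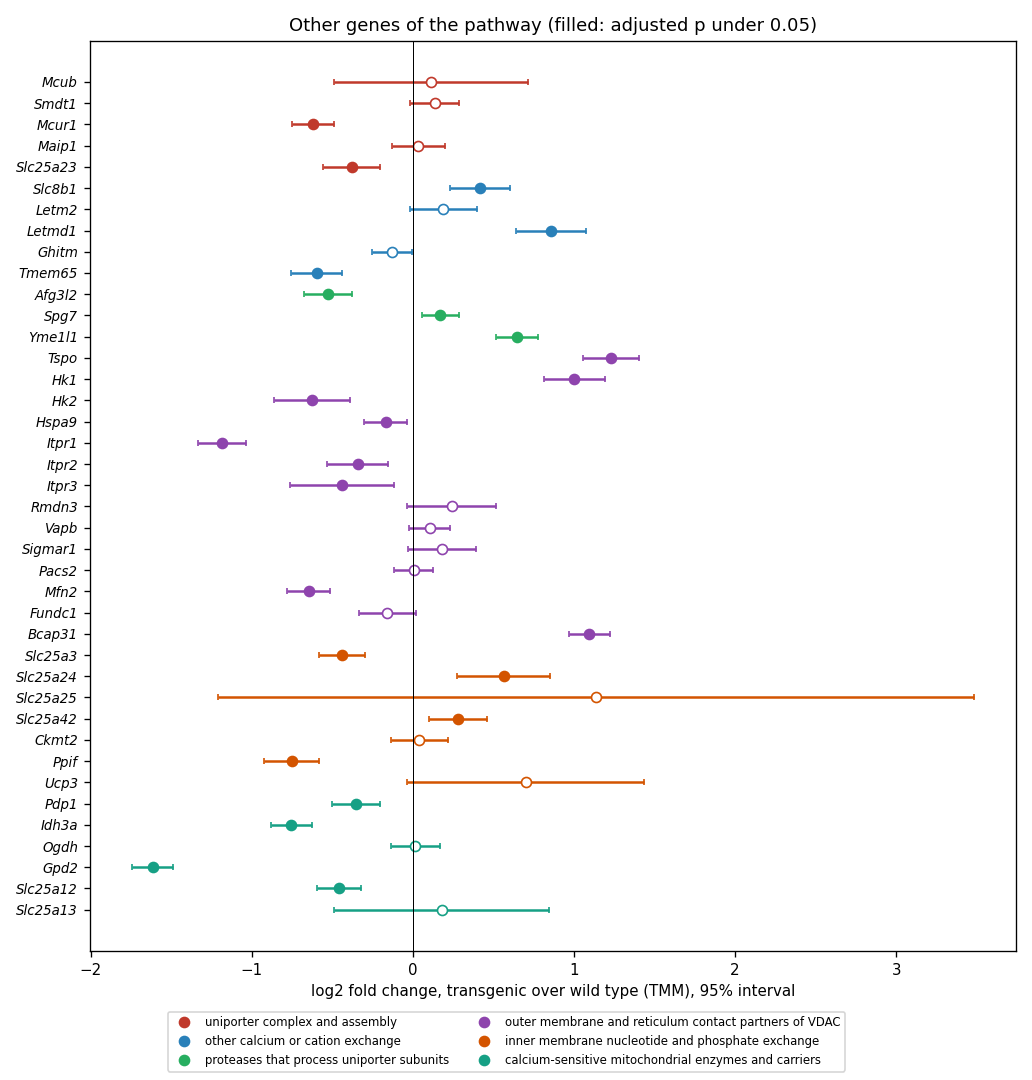
Log2 fold change, transgenic over wild type, with 95% intervals (TMM) for the 40 tested genes around the transporters, coloured by role; filled points passed an adjusted p of 0.05. Tspo (1.23), Bcap31 (1.095) and Hk1 (1.003) lie farthest right among the filled points, and Gpd2 (-1.62) and Itpr1 (-1.18) farthest left.

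Marker levels of muscle fibres also differed between the genotypes. The 8 skeletal fibre markers were Acta1, Ckm, Ttn, Mylpf, Tnnt3, Myh4, Myh2 and Atp2a1, several of them forms of fast fibres. Their summed CPM was 88359 to 92607 in transgenic against 182170 to 191251 in wild-type libraries, with 7 of 8 lower and none at 0. The largest part was Myh4 (means of 21535 against 52984 CPM). In bulk RNA, fewer cells of a type and less RNA per cell cannot be told apart, and a change of fibre type was not tested. Endothelial markers (8 of 8 lower, summed 355 to 376 against 454 to 484 CPM) and smooth muscle markers (6 of 6 lower, 425 to 462 against 615 to 714 CPM) were also lower. These sums and calls are with TMM, where 25.2% of all tested genes were called lower. The median log2 fold change was -0.37 for the endothelial and -0.60 for the smooth muscle markers. Library totals alone moved the median gene from -0.016 to 0.38, a shift close in size to the endothelial fall. Marker sums were not made with that scaling. Summed slow-fibre markers overlapped (1233 to 2818 against 735 to 1927 CPM, 0 of 7 called), and replicate 2 of each genotype had the highest sum. Singly, 2 of them did not overlap, in opposite directions. Atp2a2 was higher (means of 764 against 343 CPM) and Myl3 lower (means of 99.3 against 237 CPM). Summed macrophage markers overlapped too (55.0 to 67.5 against 41.5 to 69.7 CPM, 1 of 6 called). Adipocyte markers summed to 142 to 176 against 185 to 362 CPM (1 of 6 lower). Most of that sum was Fabp4 (means of 132 against 187 CPM), the only adipocyte marker called. The other adipocyte markers overlapped between genotypes, and wild-type replicate 1 stood out among them (Adipoq at 23.2 CPM against 3.05 and 2.23 in wild-type replicates 2 and 3). The 2 satellite cell markers, both higher, summed to 7.89 to 9.46 against 5.35 to 6.45 CPM. Fibroblast (883 to 1038 against 1027 to 1233 CPM) and Schwann cell sums (42.8 to 190.3 against 66.6 to 145.3 CPM) overlapped. The part of these differences in the transporter results was not tested.

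Set against transcripts of the same organelle, a reference chosen after seeing the data, the picture was partly different. Relative to the summed counts of 80 nuclear respiratory chain subunit genes, the VDAC genes were still lower (log2 differences of -0.28, -0.155 and -0.47 for Vdac1, Vdac2 and Vdac3). Slc25a4 was at 0.077 relative to that sum, while Micu2 (0.91) and Mcu (0.46) stood higher relative to it. With TMM, Micu2 was at 0.49 and Mcu at 0.042, not past the threshold. All 9 genes stood higher against the sum than with TMM, as the sum itself was lower in transgenic muscle with TMM. Relative to the 8 fibre markers, chosen the same way, the VDAC genes and Slc25a4 turned higher (0.35, 0.47, 0.16 and 0.70), as the markers themselves fell further. None of the 9 genes overlapped between genotypes on either scale, at the smallest exact two-sided permutation p of 0.1. The share of all tested genes without overlap on these scales was not computed, and the summed fibre markers themselves differed 0.485-fold. The separation is therefore not a result about these 9 genes.

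The authors' deposited table, limited to log2 fold changes of at least 0.585 in size, lists 2 of the 9 genes: Vdac1 at -0.698 and Vdac3 at -0.899.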

How the data were processed

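RNA from frozen gastrocnemius was sequenced from standard Illumina libraries, per the labels' protocols. Reads were aligned with STAR 2.5.0a to GRCm38.p6, per the submitters' processing notes, and the authors deposited raw fragment counts per gene made with featureCounts 2.0.0 (unstranded, fragments over several genes counted for each), per the file headers. The authors' deposited comparison holds log2 fold changes and p-values, per the file headers; DESeq2 is named in the submitters' processing notes, with no version.

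Gene names and positions came from GENCODE M21 (GRCm38), which matched 51718 of 51911 IDs. In R 4.3.3, the filter was filterByExpr on genotype. The test was edgeR 4.0.16 (TMM scaling, robust quasi-likelihood, no term but genotype), adjusted by Benjamini-Hochberg over 16593 genes. SE is the absolute log2 fold change over the square root of F. Ratios used counts per kilobase of exon union and an exact two-sided permutation test. The code was tested on simulated data. Alternatives were DESeq2 1.42.0, limma 3.58.1 (voom), other factors and filters, each library omitted in turn and a replicate block. The text names all 9 genes, and from each group of related genes up to 3 past the threshold in each direction by smallest p, plus Mcub and Smdt1. A gene of the planned lists, and the ratios that use it, are not reported here. The 9 genes and all lists were chosen with earlier results of these data known.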

Additional observations from a re-analysis of the deposited data

How the results depend on the processing

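The directions and calls of Vdac1, Vdac2, Vdac3 and Micu2 held in all 17 fits, and those of Slc25a4 in all but library totals alone (0.051). That setting also gave 8676 genes higher and 1448 lower, 5 of the 9 genes higher, 22 related genes higher and 7 lower, and calls for Mcu (0.44), Micu3 (0.67), Letm1 (0.53) and Slc25a5 (0.34, reversed). Without a filter on low counts 3 of the 9 genes were higher, with Micu3 at 0.31 and Letm1 at 0.17. Micu3 passed as the second gene higher (2 of the 9) with a mean of at least 1 CPM (0.29), the DESeq2 Wald test (0.28), mitochondrially encoded genes and Ppargc1a removed (0.29) and the replicate block (0.28). Leaving out each library gave 1 to 2 of the 9 genes higher and Micu3 at 0.18 to 0.38, and Slc25a5 at -0.15 to 0.083. The cause was not tested. The labels state no pairing of libraries. Deviations of same-numbered libraries correlated at 0.101, -0.088 and -0.21, and those of unlike-numbered libraries at -0.19 to 0.25. With 3 libraries per genotype these values cannot decide whether libraries were paired. The block called 8331 genes, 8054 of them among the 8419 called without it, and changed no other call of the 9 genes.

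Chosen after seeing the data, scaling to nuclear respiratory chain subunits gave Mcu 0.46, Micu2 0.91, Micu3 0.70, Letm1 0.56, Vdac1 -0.28, Vdac2 -0.155, Vdac3 -0.47, Slc25a4 0.077 (reversed) and Slc25a5 0.36. That sum was itself lower in transgenic muscle with TMM. Scaling to the skeletal muscle fibre markers reversed Vdac1 (0.35), Vdac2 (0.47), Vdac3 (0.16) and Slc25a4 (0.70), and gave Mcu 1.09, Micu2 1.53, Micu3 1.33, Letm1 1.18 and Slc25a5 0.98: the summed markers fell further than any of the 9 genes. Log2 ratios between genes kept their sign with an offset of 1 count and with each library left out, Micu2/Mcu at 0.41 to 0.50. Depth limits Mcub, with 15 to 33 counts.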

Other observations

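Pairs across the matrix calcium balance and the outer membrane were compared after their values were seen, as descriptions. Slc8b1 per Mcu, efflux exchanger over uptake pore, was 0.632, 0.712 and 0.657 in transgenic libraries against 0.525, 0.462 and 0.561, with no overlap. Tspo per Vdac1, both of the outer membrane, was 0.104, 0.1001 and 0.111 against 0.0305, 0.0235 and 0.0295, a 3.79-fold difference that rests on Tspo rising and Vdac1 falling. Hk2 per Vdac1 overlapped (0.153, 0.184 and 0.156 against 0.145, 0.147 and 0.178). The exact two-sided permutation p was 0.1 for Slc8b1/Mcu and Tspo/Vdac1, the smallest possible, and 0.5 for Hk2/Vdac1.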
